A study of Mus musculus with 9 samples.

Results

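The cornea of both ages was set against the other 2 tissues of a mouse study: 5 arrays of cornea, 3 adult and 2 from postnatal day 10 (P10), against 4 arrays, 2 of adult lens and 2 of adult tendon. Probe sets were chosen where all 5 cornea arrays lay above, or all 5 below, each of the 4 lens and tendon arrays. Of 12422 probe sets on the array, 8154 were high enough to be tested; 1179 of these lay above in all cornea arrays and 615 lay below. Those that also passed the test of the group means, 1147 above and 584 below, are described here. Adult tissue came from mice 7 weeks old. The corneas had been cut free of the limbus and scraped to thin the epithelium, which was reduced but not removed, and the labels call their source corneal stroma. The tendon was a long flexor of the digits, and RNA of lens and tendon came from pooled tissue. The labels name no strain, genotype or treatment for any group.

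The cornea is a stack of a stratified squamous epithelium, a collagenous stroma made by keratocytes and an inner endothelium that pumps water out of the stroma. Its epithelium holds keratin filaments, which desmosomes tie to neighbouring cells and hemidesmosomes tie to the basement membrane, and both epithelium and keratocytes store large amounts of soluble enzymes, called corneal crystallins, that are held to serve transparency and protection from ultraviolet light. The lens is an epithelium without keratinised layers whose fibre cells are packed with crystallins, and tendon is a collagen-rich tissue joined to skeletal muscle, so the pair differs from cornea in different ways.

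Promoters of the keratin and the soluble enzyme that mark the cornea are shown first, because both genes lay above lens and tendon on every cornea array at both ages. Each runs from 250 bases before to 50 bases after the start site, 5′ to 3′ on the strand of the gene, from RefSeq on GRCm38.p6. Krt12, which encodes the type I keratin of corneal epithelium, has its promoter at chr11:99422210-99422509 on the minus strand, and Tkt, which encodes transketolase of the pentose phosphate pathway, at chr14:30548881-30549180 on the plus strand. Capitals mark matches to 6 motifs, each searched on both strands. The letters were TATAAA for the TATA box and, for the AP-1 factors of the Fos and Jun families, TGANTCA. For the KLF family of zinc-finger factors they were GGGTGNGG, and for the ETS family of epithelial and other factors AGGAAGT. Grainyhead-like factors, which act in surface epithelia, were given AACNGGTT, and the general factor Sp1, which can share bases with KLF matches, was given GGGCGG.
Krt12: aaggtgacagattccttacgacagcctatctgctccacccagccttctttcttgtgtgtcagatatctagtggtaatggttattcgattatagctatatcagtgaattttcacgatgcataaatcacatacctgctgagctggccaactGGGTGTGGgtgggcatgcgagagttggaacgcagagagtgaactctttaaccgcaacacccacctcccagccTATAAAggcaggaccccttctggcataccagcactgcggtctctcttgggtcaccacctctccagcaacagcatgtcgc
Tkt: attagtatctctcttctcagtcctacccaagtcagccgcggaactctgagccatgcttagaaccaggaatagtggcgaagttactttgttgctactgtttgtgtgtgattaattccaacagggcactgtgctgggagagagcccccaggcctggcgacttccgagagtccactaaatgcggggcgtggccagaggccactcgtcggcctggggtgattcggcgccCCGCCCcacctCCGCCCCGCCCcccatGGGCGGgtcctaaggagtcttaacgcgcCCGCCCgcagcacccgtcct
The Krt12 promoter held a TATA box at -29 and a KLF match at -101 from the start site, and the Tkt promoter held 5 Sp1 matches, some of which share bases. Of all 32851 promoters in the table, 13.6% held the TATA box letters, 16.6% the KLF letters and 35.7% the Sp1 letters, so such matches are common. In the 33 promoters of 26 genes of the 5 epithelial lists that were higher and separate, the KLF letters stood in 39.4%, the AP-1 letters in 18.2% and the grainyhead-like letters in 9.09%. The shares over the promoters of all genes tested were 21.4%, 6.11% and 1.88%. Only genes with a promoter entry are counted, 4876 of the 6109 genes tested. Many higher and separate genes of the 5 lists had no entry, so the 26 are a part of them. The TATA box letters stood in 12.1% of the 33 against 9.66% of those of all genes tested, the ETS letters in 6.06% against 8.77% and the Sp1 letters in 51.5% against 58.6%. A match describes letters and not a site that a factor uses, and no test was made of these shares. Both Pax6 promoters of the table held none of the 6 motifs.

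Values are the deposited expression indices in arbitrary units, on a linear scale, and differences are of log2(index + 16) with values below 0 set to 0, which understates differences of low genes. Where a tissue is listed at or below 0 the size of a difference depends on the 16 added. Replicates within each group are independent RNA preparations, so p-values measure the spread between preparations. Array medians ran from 67.6 to 88.0. The cornea arrays served an earlier study, so batch and tissue cannot be told apart in any comparison here. Adult cornea replicate 1 stood apart in the 3'/5' ratio of its Gapdh control, a measure of RNA quality, at 2.25 against 0.831 to 1.04 on the other arrays. In these bulk samples fewer cells of a type and less RNA per cell cannot be told apart.

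Tissue markers matched the labels with exceptions that touch the comparison. The summed index of 5 corneal epithelial markers was 13831 to 17012 on the adult and 14824 to 16018 on the P10 cornea arrays, so this sum was high on the scraped corneas. The same sum was 2318 to 2764 on the lens arrays and 434 to 668 on the tendon arrays. Krt12 made up most of it on the lens arrays, at 1758 and 1603. On the cornea arrays Krt12, at 6440 to 8290, and Aldh3a1, at 5874 to 7564, made up most of it. Krt5, also 1 of the 5, did not mark the cornea, at 62.0 to 142 there and 84.2 to 117 on the other arrays.
Lens markers, 5 of 6 listed, summed to 3004 to 5590 on the cornea arrays, 24685 to 26105 on the lens arrays and 175 to 207 on the tendon arrays. Keratocyte markers, 4 of 4, summed to 4149 to 5112 on the adult cornea arrays and 6873 to 7345 on the P10 arrays, above lens (914 to 1796) but below tendon (7604 to 8337). Dcn made up most of the tendon sum, at 6588 and 7248, and Aldh1a1 most of the lens sum, at 1503 and 720. Kera and Lum overlapped between cornea and tendon, and Aldh1a1 was higher on every cornea array (403 to 733) than in tendon (172 and 185). Corneal endothelial markers, 2 of 4, summed to 85.0 to 103 on the adult cornea arrays, below lens (396 to 400.2) and tendon (170.0 to 221), and to 469 to 491 on the P10 arrays. Skeletal muscle markers, 5 of 5, summed to 16615 to 20651 on the tendon arrays against 420 to 905 in cornea and 315 to 368 in lens. The melanocyte sum reached 3126 on P10 cornea replicate 2 and was at most 1139 on each of the other arrays. No list had a marker at or below 0 on all 9 arrays, and the part of these other cells in the differences below was not tested.

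**Figure D1:**
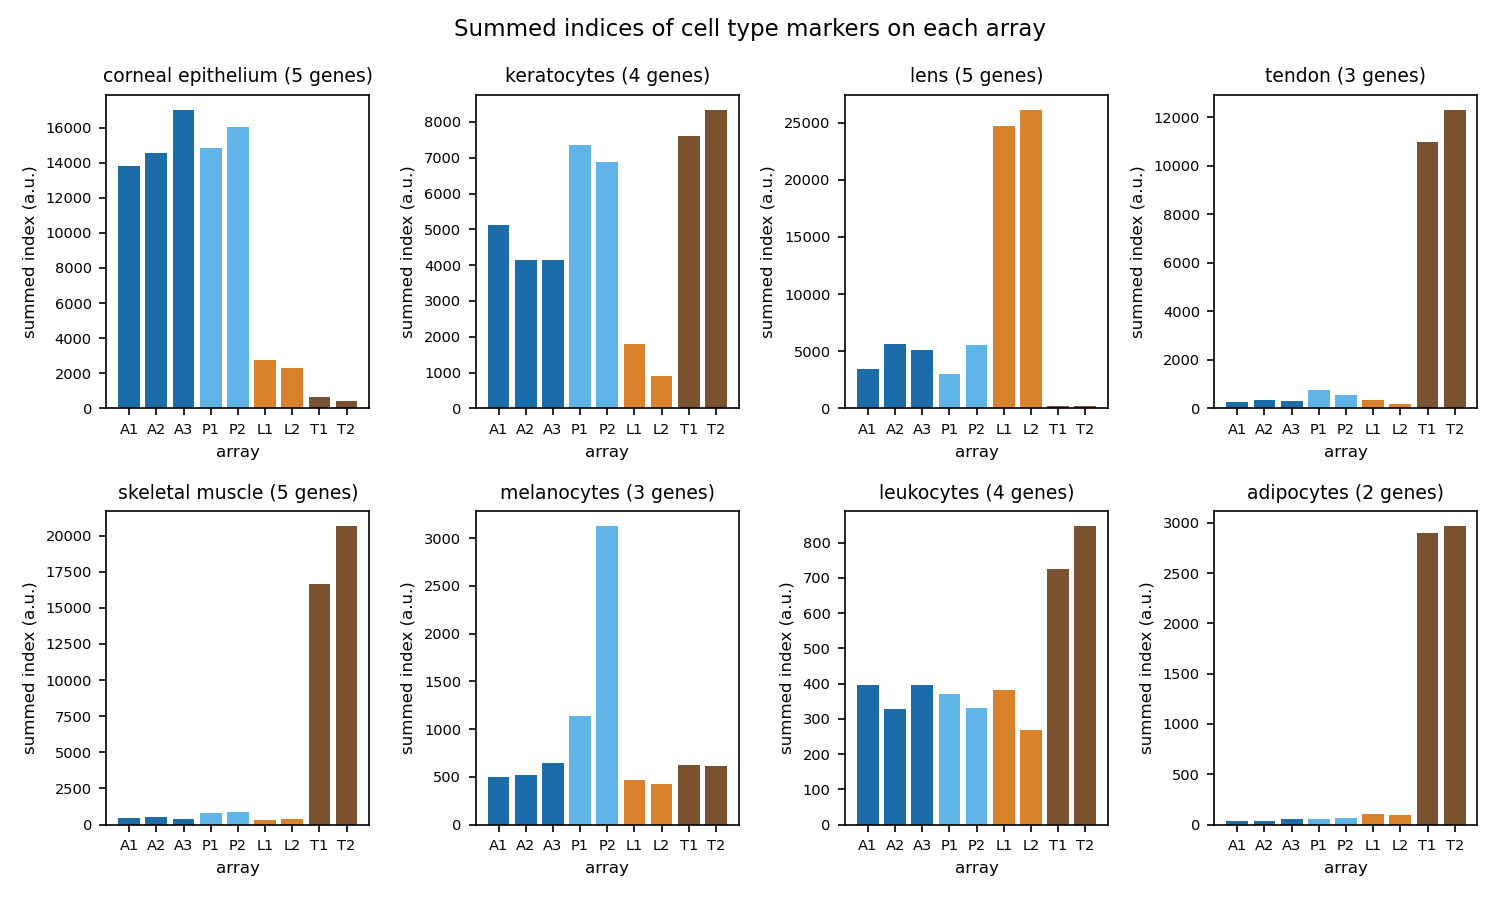
Summed expression index (arbitrary units, values below 0 set to 0) of the markers of 8 cell types on each array: A1 to A3 adult cornea, P1 and P2 P10 cornea, L1 and L2 lens, T1 and T2 tendon. Vertical scales differ between panels. Corneal epithelial markers stand highest on the 5 cornea arrays, skeletal muscle and adipocyte markers on the 2 tendon arrays.

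By limma, 2197 of 8154 probe sets (26.9%) were higher and 1868 (22.9%) lower in cornea than in the mean of lens and tendon. Requiring that no array overlap left 1147 (14.1%) higher, for 961 genes, and 584 (7.16%) lower, for 487 genes. Without the test, 14.5% of tested probe sets lay wholly above and 7.54% wholly below. The typical difference was modest, with a median of 2.23-fold higher and 2.01-fold lower on the log2(index + 16) scale, and the median gap between the nearest cornea array and the nearest other array was 1.28-fold above and 1.17-fold below. Wide gaps were more frequent above: 218 of the 1147 higher probe sets had a gap of at least 2-fold and 32 of at least 8-fold, against 44 and 4 of the 584 lower ones. The nearest other array was a tendon array for 688 of the higher and 344 of the lower probe sets. Counted against each tissue alone in the same fit, 2692 probe sets (33.0%) were higher and 1922 (23.6%) lower than in lens, and 1519 (18.6%) higher and 1406 (17.2%) lower than in tendon. Of the 1147 and 584 probe sets, 839 and 344 passed against both. Without adult cornea replicate 1, the array that stood apart in its Gapdh ratio, 1092 and 563 of them kept call and separation. At the edge of the rule, Plec, which encodes plectin, had 375 to 743 on the cornea arrays and 63.9 to 373 on the others and was counted, and Cd9, a tetraspanin, had 1300.0 to 1786 on the cornea arrays and 167 to 1394 on the others and was not.

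Probe sets with wide gaps above are given first. A probe set of Aldh3a1 (162331_f_at), the aldehyde dehydrogenase that is the main soluble protein of mouse cornea, read 2928, 2835 and 2958 on the adult cornea arrays, 2048 and 1783 on the P10 arrays, 42.0 and -34.7 in lens and -116 and -148 in tendon. Adh1, a class I alcohol dehydrogenase, read 1559, 1813 and 1677 on the adult cornea arrays, 1735 and 1608 on the P10 arrays, 35.8 and -14.0 in lens and 6.36 and 9.61 in tendon. For these 2 probe sets all 5 cornea arrays stood far above the others, and the lens and tendon arrays lay near or below 0 (log2 differences 6.75 and 6.01, limma adjusted p = 2.01e-07 and 2.37e-07).
Krt6a, an epithelial keratin, had the third widest gap with a probe set (104370_s_at) that read 2930.3, 4127 and 3960.1 in adult cornea and 2766 and 3828 in P10 cornea, against 112 and 64.9 in lens and -26.7 and -28.9 in tendon (log2 difference 6.42, limma adjusted p = 2.67e-08). Col17a1, the transmembrane collagen of hemidesmosomes, read 1879.9, 2242 and 1525 in adult cornea and 2217 and 1744 in P10 cornea, against 40.2 and 29.9 in lens and 77.8 and 25.2 in tendon. Sfn, which encodes the epithelial 14-3-3 sigma, gave 1648, 1998 and 1162 in adult cornea and 1331 and 1035 in P10 cornea, against -99.7 and -108 in lens and 57.0 and 11.9 in tendon. Neither gene overlapped between cornea and the other tissues (log2 difference 5.10 ± 0.24 SE, limma adjusted p = 2.3e-07 for Col17a1, and 5.67 with adjusted p = 2.51e-07 for Sfn). Sdc1, an epithelial heparan sulfate proteoglycan, had 515 to 957 on the cornea arrays and 4.01 to 27.5 on the others with 1 probe set (96033_at) and 291 to 891 on the cornea arrays and 37.8 to 77.8 on the others with another (161370_f_at). Perp, a desmosomal membrane protein, had 3292 to 3633 on the cornea arrays and 68.4 to 290.4 on the others, and Igfbp2, a binding protein of insulin-like growth factors, had 946 to 1992 on the cornea arrays and 25.4 to 74.9 on the others. Pglyrp1, a peptidoglycan recognition protein of innate defence, and Crybg1, a non-lens member of the crystallin superfamily, had 343 to 977 and 675 to 998 on the cornea arrays and at most 44.5 on any other.
The transcript 2610528A11Rik had 1048 to 1739 on the cornea arrays and 56.6 to 68.3 on the others. For Inpp5j, an inositol phosphatase, the lens read -92.4 and -87.3 and the tendon -809 and -1217, below 0 on all 4 arrays, against 188 to 374 in cornea, so no fold is given.

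**Figure D2:**
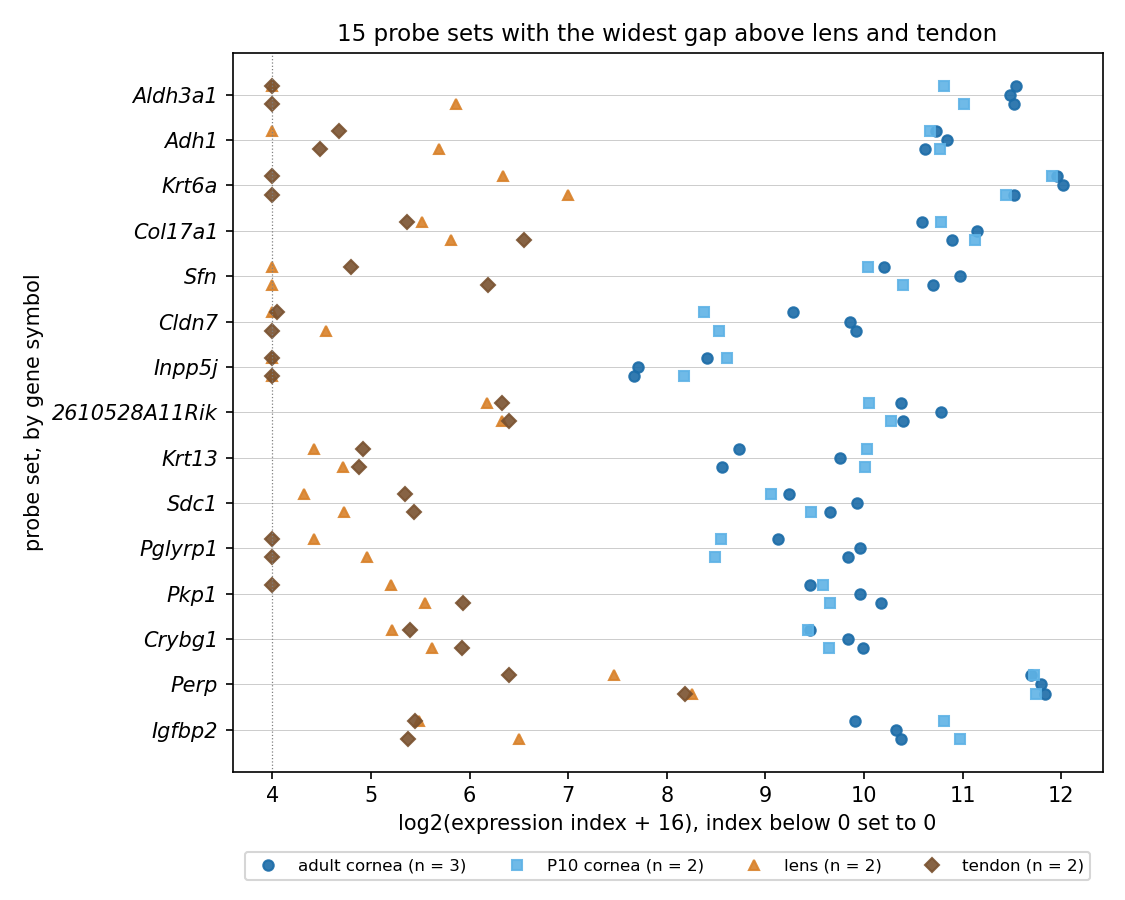
Each point is 1 array (circles adult cornea, squares P10 cornea, triangles lens, diamonds tendon) on a log2(expression index + 16) axis, for the 15 probe sets with 1 gene symbol and the widest gap above; the dotted line at 4 marks an index of 0. Every cornea point lies to the right of every lens and tendon point, and Aldh3a1 leads the order.

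Keratins were higher as a group. Of 14 genes of corneal and stratified epithelial keratins tested, 10 were higher and separate, 0 lower and separate, and the median log2 difference was 3.29, against 888 (14.5%) and 407 (6.66%) of 6109 genes tested and a median of 0.07. By the test alone, 1690 of the 6109 genes were higher and 1363 lower. The counts of every list below are to be read beside these. Krt12 read 6614, 6685 and 8290.3 on the adult cornea arrays, 6439.9 and 7313 on the P10 arrays, 1758 and 1603 in lens and 401 and 257 in tendon. The lens and tendon arrays thus kept a clear Krt12 index, and the cornea stood above both (log2 difference 3.22 ± 0.15 SE, limma adjusted p = 1.96e-07). Krt14, the type I keratin of basal cells, read 759, 1068 and 789 in adult cornea and 1648 and 1375 in P10 cornea, against 4.18 and 10.2 in lens and 124 and 20.4 in tendon, higher in cornea without overlap (log2 difference 4.83 ± 0.34 SE, limma adjusted p = 2.51e-06).
Markers of conjunctiva and skin, 5 of 5 listed, with Krt13 and Krt4 among them, summed to 1190 to 2172 on the adult and 2550 to 2917 on the P10 cornea arrays, 518 to 549 on the lens arrays and 993 to 2801 on the tendon arrays, and their part in the keratin values was not tested. Krt13, a keratin of mucosal epithelia, had 362 to 1027 on the cornea arrays and 5.47 to 14.4 on the others. Krt19, a keratin of simple epithelia, had 319.5 to 2329 on the cornea arrays and 24.1 to 48.7 on the others (log2 differences 4.78 and 4.35). Krt6a had 3385 to 4904 on the cornea arrays and 143 to 365 on the others with the probe set taken for the list (104369_at), and its sequence is close to that of Krt6b, so the signal may be shared. Krt15, Krt4, Krt17, Krt7 and Krt8 were the other members that were higher and separate, with log2 differences of 4.96, 3.40, 3.37, 3.04 and 1.41.
Krt5, the usual partner of Krt14 in basal cells, was low on this probe set at 69.7, 62.0 and 142 on the adult cornea arrays, 74.5 and 80.4 on the P10 arrays, 117 and 92.6 in lens and 84.2 and 111 in tendon. Its groups overlapped and no difference was called (log2 difference -0.26 ± 0.22 SE, limma adjusted p = 0.353), although one was without adult cornea replicate 3 (limma adjusted p = 0.0344). Krt10, a keratin of the suprabasal epidermis, was lower in cornea by the test (log2 difference -1.53, limma adjusted p = 0.00349) with tendon readings of 1853 and 464 against 93.1 and 86.3 in lens. Its cornea arrays, at 67.3 to 110.3, overlapped the lens.

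Desmosome and hemidesmosome genes were higher as a group, 13 of 17 higher and separate and 0 lower and separate, with a median log2 difference of 2.81. Itgb4, the integrin chain of hemidesmosomes, read 1084, 1166 and 837 on the adult cornea arrays, 1058 and 852 on the P10 arrays, -23.7 and -20.8 in lens and 77.0 and 78.1 in tendon. Pkp1, a plakophilin of the desmosomal plaque, read 1136, 982 and 685 in adult cornea and 789.7 and 751 in P10 cornea, against 30.7 and 20.8 in lens and 45.0 and -5.37 in tendon. Both lay far above every other array, with differences of 4.69 and 4.57 (limma adjusted p = 3.64e-08 and 4.16e-06).
Of the desmosomal cadherin genes, Dsc2 had 571 to 1137 on the cornea arrays and 5.03 to 60.5 on the others, and Dsg2 had 194 to 479 on the cornea arrays and 21.7 to 38.4 on the others. Dsp, which encodes the plaque protein desmoplakin, had 2759.7 to 3369 on the cornea arrays and 82.0 to 316 on the others. Of the laminin-332 chains, which anchor hemidesmosomes, Lama3 had 154 to 327 on the cornea arrays and 11.5 to 38.7 on the others, and Lamb3 had 148 to 269 on the cornea arrays and 11.4 to 42.7 on the others. Against each tissue alone the list gave similar medians, 2.79 over lens and 2.76 over tendon. Exceptions were Pkp2, which was not called (10.7 to 35.6 on the cornea arrays and 5.2 to 175 on the others), and Itga6, Cd151 and Dsc3, which were higher by the test but overlapped. Itga6, the partner chain of Itgb4, read 262 and 133 in lens, 1 array above and 1 below the range of 142 to 255 in cornea.

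Genes of epithelial adhesion and tight junctions were higher and separate in 6 of 10 cases, with a median log2 difference of 1.27. Of the claudin genes, Cldn7 had 318 to 955 on the cornea arrays and -11.2 to 7.26 on the others, and Cldn4 had 279 to 481 on the cornea arrays and 21.7 to 27.1 on the others. Spint1, a membrane protease inhibitor, had 258 to 512 on the cornea arrays and -0.07 to 18.3 on the others. F11r, which encodes the junctional adhesion molecule A, had 478 to 906 on the cornea arrays and 65.7 to 107 on the others. All 4 genes were separate, with differences of 4.92, 3.09, 3.74 and 2.72 and limma adjusted p-values of 7.2e-08, 2.37e-07, 7.06e-07 and 2.33e-06. Cdh1, the E-cadherin gene, was separate by a narrower margin, at 227 to 514 on the cornea arrays and 45.7 to 189 on the others (log2 difference 1.76). Tjp1, which encodes the junction scaffold ZO-1, was lower by the test (log2 difference -0.45, limma adjusted p = 0.0275), at 2082 and 1995 in tendon and 234 and 228 in lens against 248 to 816 in cornea. This call, the 1 lower call of the list, was lost with quantile normalization and without any 1 of the lens, tendon or P10 arrays.

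Barrier and differentiation genes were mixed, 6 of 19 higher and separate and 0 lower and separate. Serpinb5, or maspin, had 288 to 812 on the cornea arrays and 10.9 to 32.3 on the others, Anxa8, an annexin of epithelia, 1514 to 2113 on the cornea arrays and 74.1 to 683 on the others and Cstb, a cysteine protease inhibitor, 939 to 1626 on the cornea arrays and 284 to 338 on the others. Their differences were 3.55, 2.84 and 1.92 (limma adjusted p = 2.8e-06, 2.72e-07 and 3.73e-06). Of the cornified envelope genes, Sprr1a had 97.3 to 116 on the cornea arrays and 79.7 to 132 on the others and was not called, and Sprr1b, at 1269 to 2040.1 on the cornea arrays and 1683 to 3133 on the others, was lower by the test with overlap (log2 difference -0.56). Slurp1 and Psca, small proteins of the Ly6 family, overlapped through the young cornea. Slurp1 read 1077, 1532 and 1198 in adult cornea and 108 and 14.97 in P10 cornea, against 23.1 and 19.4 in lens and 6.75 and 19.2 in tendon.

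Among transcription factors of epithelium and eye, 10 of 17 were higher and separate and 0 lower and separate, with a median log2 difference of 1.17. Pax6, the paired-box factor needed for eye formation and for Krt12 expression, read 833, 619 and 579.5 on the adult cornea arrays, 936 and 728 on the P10 arrays, 326 and 199 in lens and 3.8 and 2.39 in tendon. The lens stood between cornea and tendon. On the log2 scale cornea differed by 1.49 from lens (limma adjusted p = 0.000424) and by 5.31 from tendon (limma adjusted p = 9.85e-08). Against the mean of lens and tendon the log2 difference was 3.40 ± 0.19 SE (limma adjusted p = 5.72e-07).
Klf5, a zinc-finger factor of surface epithelia, had 332 to 619 on the cornea arrays and 19.7 to 66.6 on the others, and Elf3, an ETS factor of epithelia, had 639 to 1274 on the cornea arrays and 35.6 to 149.9 on the others. Trp63, the p63 factor that maintains stratified epithelia, had 178 to 314 on the cornea arrays and 16.7 to 27.9 on the others, and Tfap2b, an AP-2 factor, had 91.5 to 275 on the cornea arrays and 3.99 to 16.5 on the others. These 4 genes had differences of 3.12, 3.21, 2.87 and 2.99 (limma adjusted p = 1.24e-06, 2.01e-07, 1.26e-06 and 6.07e-06). The lens factors Prox1 and Six5 went the other way by the test with overlap, Prox1 at -1.63 and Six5 at -1.08, and both read highest in lens, at 233 and 175 and 862 and 900.5. Under the alternatives the count of higher and separate factors was 9 to 10.

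Soluble enzymes split by gene. Of 16 tested, 7 were higher and separate and 1 was lower and separate, with a median log2 difference of 0.59. Tkt read 4459.8, 4496 and 4689.9 on the adult cornea arrays, 4597 and 4242 on the P10 arrays, 896 and 475 in lens and 115 and 133 in tendon, with the 5 cornea arrays close together and the lens above the tendon (log2 difference 3.88 ± 0.17 SE, limma adjusted p = 1.96e-07). The probe set of Aldh3a1 with the highest level (99548_at) read 5874, 6378 and 7564 in adult cornea and 6232 and 6973 in P10 cornea, against 696 and 484 in lens and -6.41 and -14.1 in tendon, so the lens carried an index that tendon did not.
Gsta4, a glutathione transferase that clears lipid aldehydes, had 2128 to 3849 on the cornea arrays and 30.9 to 212 on the others, and Gsto1, an omega-class member of that family, had 3973 to 6138 on the cornea arrays and 136 to 854 on the others. Their log2 differences were 5.15 and 3.88 (limma adjusted p = 2.66e-07 and 3.64e-08). Aldh1a1, the related enzyme used as a crystallin in other mammals, was not called, at 403 to 733 on the cornea arrays and 172 to 1503 on the others. Gstm1, at 318 to 443 on the cornea arrays and 575 to 1576 on the others, was the 1 gene lower and separate, although mu-class transferases are alike in sequence and their signals may be shared.
Of 24 antioxidant and detoxification genes, 5 were higher and separate and 2 lower and separate (20.8% and 8.33%, against 14.5% and 6.66% of all genes tested). The 2 became 4 without lens replicate 2, and 1 without lens replicate 1, either tendon array or either P10 array. Txn1, thioredoxin, had 2619 to 3274 on the cornea arrays and 367 to 939 on the others, and the metallothionein gene Mt2 had 1842 to 2465 on the cornea arrays and 616 to 999 on the others (log2 differences 2.12 and 1.46, limma adjusted p = 3.41e-06 and 1.42e-05). Gstm5 was lower, at 250.3 to 282 on the cornea arrays and 408 to 1343 on the others (log2 difference -1.39, limma adjusted p = 2.24e-05), and 2 of its 3 further probe sets were not called. Hmox1, the inducible haem oxygenase, was high in lens alone, at 2206 and 1940.0 against 110.2 to 179.7 in cornea.

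Of 25 cell cycle genes, 16 were higher by the test and 3 lower, 13 of them higher and separate and 1 lower and separate (the 3 became 1 without lens replicate 2, either tendon array or P10 cornea replicate 2), with a median log2 difference of 0.68, or 0.76 over lens and 0.74 over tendon. Mki67, which encodes the proliferation antigen Ki-67, read 223, 149 and 123 on the adult cornea arrays, 300.0 and 166 on the P10 arrays, 30.9 and 21.5 in lens and 22.4 and 12.4 in tendon, and Top2a, the replication topoisomerase, read 66.5, 95.6 and 48.1 in adult cornea and 139 and 79.3 in P10 cornea, against 12.7 and 9.28 in lens and 4.23 and -2.69 in tendon. Adult and P10 arrays both lay above the others in each gene (log2 difference 2.46 ± 0.22 SE, limma adjusted p = 1.56e-05 for Mki67, and 2.20 with adjusted p = 2.6e-05 for Top2a). Mcm3, a subunit of the replicative helicase, had 163 to 271 on the cornea arrays and 46.5 to 51.8 on the others, and Ccnd1, cyclin D1, had 544 to 1045 on the cornea arrays and 96.2 to 232 on the others.
Ccnd1 differed by 2.39 and Mcm3 by 1.76. Plk1, a mitotic kinase, was the gene lower and separate, at 48.7 to 81.0 on the cornea arrays and 90.8 to 124 on the others (log2 difference -0.53, limma adjusted p = 0.00844). Rrm2, a ribonucleotide reductase subunit, was high in lens only, at 374 and 546, and Cdkn1b, a cell cycle inhibitor, was highest there too, at 1235 and 1750.5. By limma 0 genes of the list were called between the ages, and 3 had an unadjusted p under 0.05.

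**Figure D3:**
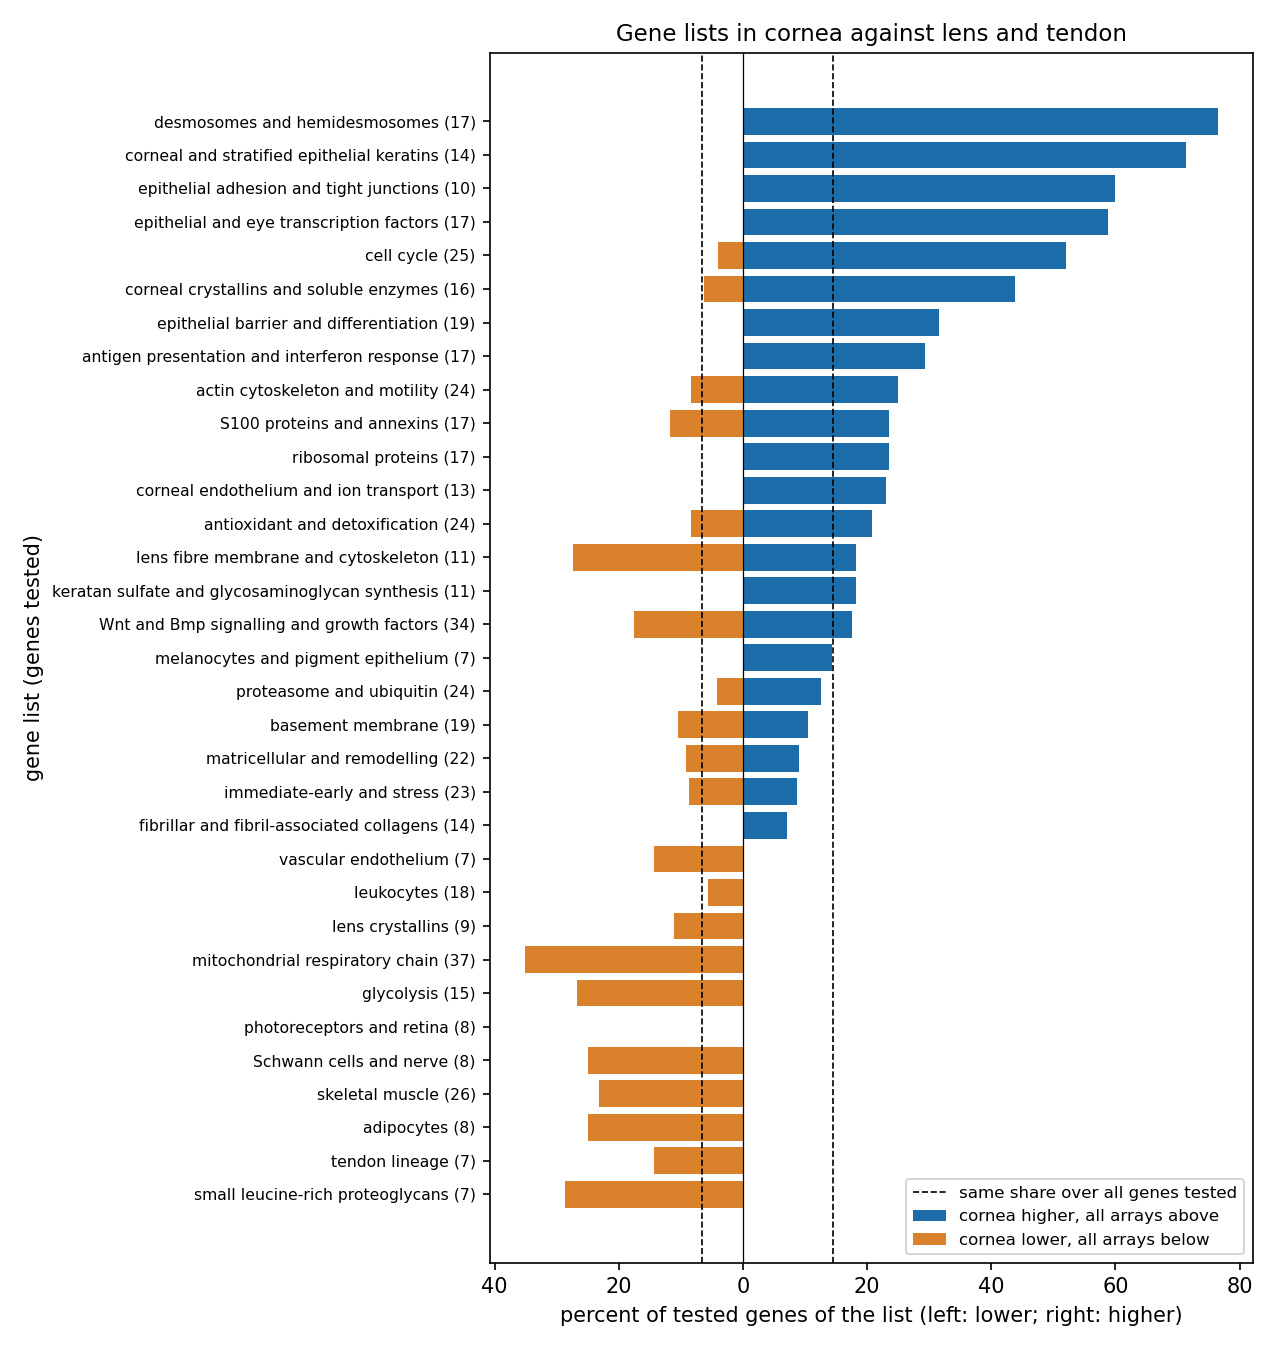
Percent of the tested genes of each list that were higher (blue, to the right) or lower (orange, to the left) in cornea by limma with no overlap between arrays; the number of genes tested stands in brackets, and lists with under 4 tested genes are left out. Dashed lines mark the shares over all 6109 genes tested, 14.5% higher and 6.66% lower; desmosome and keratin lists reach 76.5% and 71.4% on the right.

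Signalling genes went both ways, with 6 of 34 Wnt, Bmp and growth factor genes higher and separate and 6 lower and separate (17.6% each). Over all genes tested the shares were 14.5% and 6.66%, so the higher share was near that of all genes. By the test 10 of the 34 were higher and 11 lower. The lower side depended on the filter and the normalization. With the array median required on at least 4 arrays, 24 were tested, 9 were higher and 4 lower by the test, and 6 and 3 were separate. With quantile normalization 5 were higher and separate and 9 lower and separate. Wnt4, a ligand of epithelia, had 238 to 573 on the cornea arrays and -12.3 to 63.1 on the others, and Wnt10a, another Wnt ligand, had 83.7 to 161 on the cornea arrays and 17.0 to 37.0 on the others. Both were higher (log2 differences 3.37 and 1.73, limma adjusted p = 2.1e-06 and 6.07e-06). On the lower side stood Igfbp7, a secreted binding protein of vessels and matrix, which read 147, 155 and 119 on the adult cornea arrays, 270.3 and 449.8 on the P10 arrays, 1286 and 896 in lens and 1901 and 2019 in tendon (log2 difference -2.62 ± 0.19 SE, limma adjusted p = 2.8e-06). Fgf2, Tgfb3 and Igf1, all secreted growth factors, were lower and separate as well, with differences of -1.69, -1.64 and -1.05.

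Both inducible Hsp70 copies were higher and separate. Hspa1b, an inducible Hsp70 gene, read 1914, 1782 and 1968 on the adult cornea arrays, 1946 and 1973 on the P10 arrays, 171 and 105 in lens and 108 and 75.4 in tendon, and Hspa1a, its near copy, had 663 to 1171 on the cornea arrays and 31.2 to 73.3 on the others. The cornea arrays lay far above all others at both ages (log2 differences 3.94 and 3.79, limma adjusted p = 1.47e-07 and 3.35e-07), and the probes of these copies may share signal. They were the 2 genes higher and separate among 23 immediate-early and stress genes. Fos and Egr1, early response factors, overlapped. Fos had 80.03 to 208 on the cornea arrays and 19.0 to 120.4 on the others, and Egr1 had 41.0 to 70.0 on the cornea arrays and 44.9 to 124 on the others.
Antigen presentation genes had 5 of 17 higher and separate and 0 lower and separate, with a median log2 difference of 0.74, and of 1.35 over lens and 0.35 over tendon. Tap1, a peptide transporter, had 105 to 145 on the cornea arrays and 37.6 to 53.3 on the others, and Psmb8, an immunoproteasome subunit, had 82.2 to 385 on the cornea arrays and -25.8 to 66.6 on the others. B2m, the light chain of class I molecules, overlapped, with 1944 and 1846 in tendon and 92.8 and 8.5 in lens against 200.1 to 523 in cornea. Kit, a receptor of melanocytes and other cells, had 208 to 360.0 on the cornea arrays and 8.97 to 17.9 on the others (log2 difference 3.38, limma adjusted p = 4.58e-07). The pigment gene Pmel did not share that pattern, at 128, 130.4 and 183 in adult cornea and 429.6 and 1647 in P10 cornea, against 176 and 176 in lens and 111 and 119 in tendon, with P10 cornea replicate 2 farthest out.

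Stromal matrix genes mostly did not separate, and tendon carried many of them at high levels. Of 14 fibrillar and fibril-associated collagens, 9 were higher by the test but 1 was separate, and the median log2 difference was 2.05 over lens and -0.51 against tendon. Col11a2, a chain of a minor fibrillar collagen, was that gene, at 541, 677 and 645 in adult cornea and 455 and 513 in P10 cornea, against 156 and 140.1 in lens and -44.7 and 121 in tendon (log2 difference 2.68 ± 0.49 SE, limma adjusted p = 0.00136).
Among 7 small leucine-rich proteoglycans, 4 were higher by the test but 0 higher and separate, and 2 were lower and separate, with medians of 3.07 over lens and -1.42 against tendon. Kera, which encodes the corneal keratan sulfate proteoglycan keratocan, read 311, 183 and 144 on the adult cornea arrays, 441 and 345 on the P10 arrays, 15.8 and 7.69 in lens and 213 and 236 in tendon. Adult cornea overlapped tendon and stood above lens, and the test gave 1.87 against the mean of lens and tendon (limma adjusted p = 7.78e-05). Lum, lumican, had 595 to 2087 in cornea, 35.2 and 28.5 in lens and 631 and 668 in tendon, so adult cornea replicate 3 lay below both tendon arrays (log2 difference 2.78, limma adjusted p = 3.33e-06).
Dcn, decorin, was highest in tendon, at 6588 and 7248, against 2484 to 4601 in cornea and 242 and 157 in lens (log2 difference 1.53, limma adjusted p = 1.59e-05). Fmod, fibromodulin, was lower in cornea by the test but overlapped the lens, at 123, 177 and 106 in adult cornea and 588 and 397 in P10 cornea, against 215 and 45.2 in lens and 5455 and 6342 in tendon (log2 difference -1.62 ± 0.34 SE, limma adjusted p = 0.00324). Ogn, osteoglycin, was lower and separate, at 115, 69.8 and 95.3 in adult cornea and 336 and 229 in P10 cornea, against 1216 and 771 in lens and 1045 and 1208 in tendon (log2 difference -2.57 ± 0.20 SE, limma adjusted p = 5.41e-06), and a further probe set of this gene was also lower and separate.
Tgfbi, the matrix protein mutated in inherited corneal dystrophies, was higher and separate, at 2545, 2185 and 2117 in adult cornea and 2104 and 1846 in P10 cornea, against 87.0 and 74.0 in lens and 714 and 725 in tendon (log2 difference 3.00 ± 0.13 SE, limma adjusted p = 1.47e-07). Papss2, a synthase of the sulfate donor for glycosaminoglycans, had 113 to 415 on the cornea arrays and 13.8 to 75.5 on the others (log2 difference 2.23, limma adjusted p = 1.77e-05), 1 of 2 genes of 11 in that list that were higher and separate. Col7a1, the collagen of anchoring fibrils under stratified epithelia, had 241 to 691 on the cornea arrays and 95.1 to 157 on the others (log2 difference 1.74, limma adjusted p = 8.28e-06). Col4a2 and Lama2, basement membrane chains, were lower and separate, with differences of -1.57 and -1.37 (limma adjusted p = 0.000264 and 0.000124). Of 19 basement membrane genes, 2 were thus higher and 2 lower without overlap (10.5% each, against 14.5% and 6.66% of all genes tested). Many matrix genes differed between the ages, so their cornea mean joins 2 levels. By limma 11 of the 14 collagens, 3 of the 7 proteoglycans, 9 of the 19 basement membrane genes and 9 of 22 matricellular and remodelling genes were lower in the adult. In each of these lists 0 were higher. Over all 6109 genes tested, 231 were lower and 45 higher in the adult.

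Genes below both tissues were fewer and came from several groups. Pgam2, the muscle phosphoglycerate mutase, read -0.19, 0.66 and 4.43 on the adult cornea arrays, -1.46 and 7.96 on the P10 arrays, 1133 and 869.7 in lens and 787 and 1124 in tendon. The cornea arrays lay near 0 while lens and tendon were alike (log2 difference -5.73 ± 0.19 SE, limma adjusted p = 3.64e-08). S100a4, a calcium-binding protein of motile and fibroblastic cells, read 160.5, 196 and 162 in adult cornea and 172 and 173 in P10 cornea, against 2066 and 1721 in lens and 2814 and 3398 in tendon, and Fxyd1, phospholemman, a regulator of the sodium pump, read 34.6, 67.2 and 70.7 in adult cornea and 41.2 and 71.7 in P10 cornea, against 1042 and 839 in lens and 1336 and 1499.7 in tendon. All cornea arrays lay at least 8.21-fold below for S100a4 and 9.75-fold for Fxyd1 on the log2(index + 16) scale (limma adjusted p = 7.2e-08 and 3.85e-07).
Cilp2, a matrix protein of cartilage, was listed below 0 on all 5 cornea arrays and read 281 and 213 in lens and 1538 and 1673 in tendon, so no fold is given. A further probe set of Cilp2 was high in tendon only and overlapped. P4ha1, a collagen prolyl hydroxylase subunit, had 28.9 to 71.4 on the cornea arrays and 312 to 485 on the others, and Adk, adenosine kinase, had 74.6 to 202 on the cornea arrays and 841 to 938 on the others. Chpt1, which makes phosphatidylcholine, had 1.87 to 20.3 on the cornea arrays and 144 to 381 on the others. Their differences were -2.48, -2.46 and -3.21 (limma adjusted p = 2.87e-06, 3.12e-05 and 1.9e-07), and a further probe set of Adk was not called.
Fhl1, a LIM protein of muscle, had 207 to 269 on the cornea arrays and 986 to 2738 on the others, Gpd1, glycerol-3-phosphate dehydrogenase, 15.7 to 33.6 on the cornea arrays and 128 to 409.7 on the others, and Rhoq 89.7 to 159 on the cornea arrays and 471 to 759.7 on the others. Nnat, the imprinted neuronatin gene, had 2.88 to 68.4 on the cornea arrays and 241 to 680.2 on the others, Lepr, the leptin receptor, -3.12 to 1.34 on the cornea arrays and 48.0 to 160.5 on the others, and H2-M1, a class Ib histocompatibility gene, 43.5 to 159 on the cornea arrays and 519 to 929 on the others. All 6 probe sets were lower and separate, with log2 differences from -3.58 for Nnat to -2.18 for Rhoq. Both further probe sets of Fhl1 overlapped between the groups, and another of Gpd1 (92592_at) overlapped and was not called (log2 difference -0.03, limma adjusted p = 0.837).

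**Figure D4:**
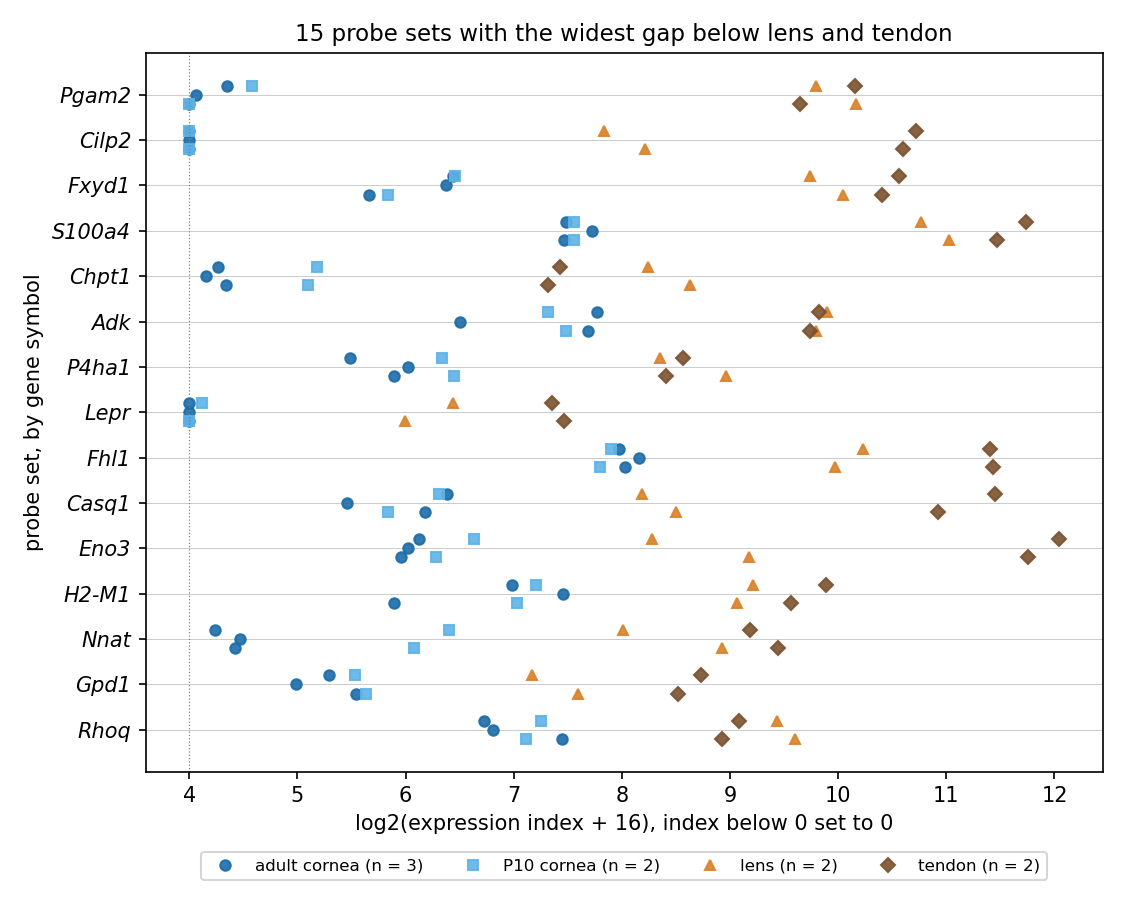
Each point is 1 array (symbols as for the plot of the genes above) on a log2(expression index + 16) axis, for the 15 probe sets with 1 gene symbol and the widest gap below; the dotted line at 4 marks an index of 0. Every cornea point lies to the left of every lens and tendon point, with lens and tendon alike for Pgam2 and tendon far above lens for Eno3.

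Many respiratory chain genes were lower in cornea. Of 37 subunits tested, 13 were lower and separate and 0 higher and separate, with a median log2 difference of -0.67, and of -0.41 against lens and -1.10 against tendon. The test alone called 25 lower and 1 higher, 16 lower and 6 higher against lens alone, and 26 lower and 1 higher against tendon alone. Without tendon replicate 2 the 25 became 13 of 33 tested. Ndufb5 and Ndufb8, subunits of complex I, gave the widest gaps among the broadly expressed subunits. Ndufb5 read 612, 641 and 458 on the adult cornea arrays, 709 and 559 on the P10 arrays, 1474 and 1257 in lens and 1688 and 1917 in tendon (log2 difference -1.37 ± 0.15 SE, limma adjusted p = 5.3e-05), and Ndufb8 read 244, 451 and 184 in adult cornea and 246 and 215 in P10 cornea, against 914 and 760.3 in lens and 889 and 906 in tendon (log2 difference -1.72 ± 0.23 SE, limma adjusted p = 0.000184).
Ndufc1, Cox6c and Cox7b, further subunits of complexes I and IV, were lower and separate with log2 differences of -1.40, -0.85 and -0.90. Cox6a2, the muscle form of a complex IV subunit, was set apart by tendon, at 3408 and 3608 there against 18.4 and 30.2 in lens and -0.42 to 8.12 in cornea. Uqcrc1, of complex III, was the 1 gene higher by the test (log2 difference 0.61, limma adjusted p = 0.0145) and overlapped; the list had 0 higher calls without lens replicate 2, tendon replicate 1 or P10 cornea replicate 2. Over the alternatives the count of lower and separate genes of this list was 10 to 17.

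**Figure D5:**
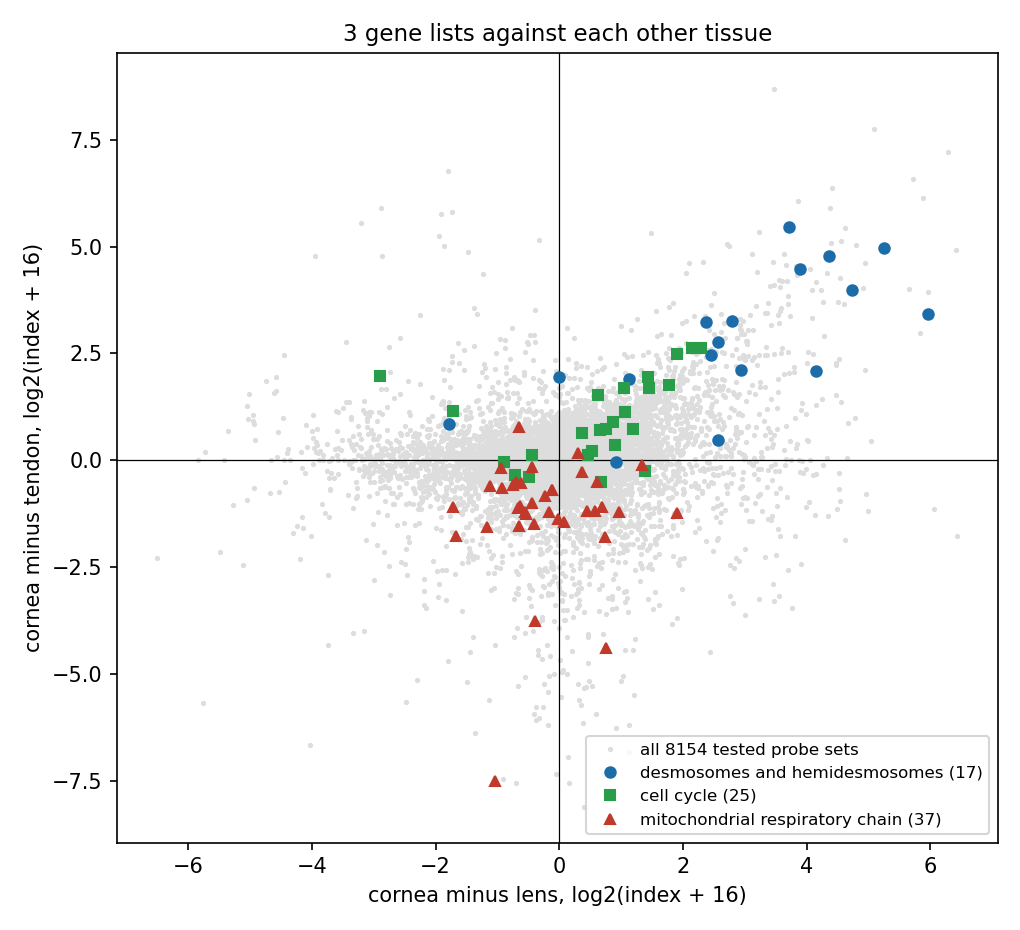
Each point is 1 probe set, placed by its log2(index + 16) difference of cornea from lens (horizontal) and from tendon (vertical); grey points are all 8154 tested probe sets and coloured symbols 1 probe set for each gene of 3 lists. The 2 differences share the cornea arrays. Desmosome and hemidesmosome genes lie mostly at the upper right, with medians of 2.79 and 2.76, and respiratory chain genes mostly below the horizontal line, with medians of -0.41 and -1.10.

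Glycolytic genes had 4 of 15 lower and separate and 0 higher and separate, with a median log2 difference of -0.79. Besides Pgam2 these were Eno3, the muscle enolase, Hk2, a hexokinase, and Pgk1, phosphoglycerate kinase. Eno3 read 46.3, 49.1 and 53.9 in adult cornea and 61.9 and 83.0 in P10 cornea, against 561 and 294 in lens and 3449.9 and 4201 in tendon (log2 difference -4.07 ± 0.20 SE, limma adjusted p = 2.41e-07), with the tendon far above the lens. Hk2 had 46.4 to 67.7 on the cornea arrays and 114 to 332 on the others, and Pgk1 had 347 to 463 on the cornea arrays and 658 to 1139.8 on the others (log2 differences -1.69 and -0.98, limma adjusted p = 7.59e-06 and 0.00143). Hk1, the hexokinase of most tissues, was higher by the test with overlap (log2 difference 0.67, limma adjusted p = 0.00219).

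Of 26 skeletal muscle genes, 23 were lower by the test and 6 lower and separate, with a median of -5.38 against tendon and -0.02 against lens. Members not tested when a tendon array was left out had reached the array median on that array and 1 other only. The filter thus favoured a lower call for them. With the array median required on at least 4 arrays, 12 were tested and 10 were lower by the test. Without tendon replicate 1, 12 of 16 tested were lower by the test, and without tendon replicate 2, 13 of 16. Casq1, the calcium store protein calsequestrin, had 28.1 to 67.5 in cornea, 345 and 276 in lens and 1922 and 2784 in tendon, and Actn3, a muscle actinin, had 52.0 to 119, 423 and 287 and 2434 and 3045 (log2 differences -3.72 and -3.25, limma adjusted p = 9.97e-07 and 1.98e-06). Pygm, the muscle glycogen phosphorylase, was also lower and separate (-3.87). The defining muscle genes Ckm and Mylpf were low on the lens arrays, at 3.9 and 19.6 and 22.1 and 41.0, while the probe sets given for Casq1, Actn3 and Eno3 read higher in lens than in cornea. A further probe set of Actn3 (162164_f_at) did not, at 56.8 and 47.9 in lens, within the 45.8 to 61.4 of cornea, and 1854 and 2469 in tendon. The part of muscle RNA in the tendon and lens readings was not tested.

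Lens crystallin genes read high on the cornea arrays. Cryaa, alpha A-crystallin, read 1279.7, 2443 and 2078 on the adult cornea arrays, 1603 and 3082 on the P10 arrays, 6405 and 7231 in lens and 12.2 and 31.7 in tendon. The cornea lay between lens and tendon and overlapped neither of them, but it was not on 1 side of both (-1.73 from lens, 5.81 from tendon). Of 9 crystallin genes, 8 were higher by the test against the mean of lens and tendon while all 9 were lower than in lens. Cryab, the small heat shock protein alpha B-crystallin, was the exception, lower and separate at 226, 251 and 220.5 in adult cornea and 184 and 250.4 in P10 cornea, against 3252 and 2958 in lens and 356 and 371 in tendon (log2 difference -2.18 ± 0.14 SE, limma adjusted p = 1.34e-06). Mip, a water channel of lens fibre membranes, was at most 76.5 on the cornea arrays against 1799.6 and 1918 in lens.
Among 11 lens fibre genes, 2 were higher and separate and 3 lower and separate, or 1 lower without lens replicate 2. The higher pair were the connexins Gjb2 and Gja1. Gjb2 had 602 to 933 on the cornea arrays and 20.2 to 49.8 on the others (log2 difference 4.09, limma adjusted p = 1.79e-07), and Gja1, with 1672 to 2377 on the cornea arrays and 494 to 1551 on the others, was closer to the other tissues (0.99). Hsf4, a heat shock factor of lens, was listed at or near 0 in cornea, with -9.64 to 1.11 on the cornea arrays and 3.6 to 408 on the others.

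For the actin, S100, ribosomal, proteasome and ion transport lists, the counts of genes higher and lower given next are of separate genes. By the test alone these lists had, in that order, 10 higher and 5 lower, 5 and 5, 9 and 0, 3 and 2, and 4 and 5. Actin and motility genes had 6 of 24 higher and separate and 2 lower, with Capg, an actin-capping protein, at 1052 to 1589 on the cornea arrays and 74.4 to 314 on the others and Myh9, non-muscle myosin, at 799.7 to 1216 on the cornea arrays and 65.5 to 559 on the others. Another probe set of Capg (162461_at) was called lower, with overlap. S100 and annexin genes had 4 of 17 higher and 2 lower, with Anxa2 at 3842 to 4608 on the cornea arrays and 667 to 2129.6 on the others and S100a10, its partner, at 1341 to 2442 on the cornea arrays and 437 to 770.1 on the others. Ribosomal protein genes had 4 of 17 higher and 0 lower, with a median of 0.29, but this count ran from 1 without tendon replicate 1 or without P10 cornea replicate 1 to 11 with quantile normalization. Of 24 proteasome genes 3 were higher (12.5%, or 5 genes without adult cornea replicate 3) and 1 lower (4.17%), and the median was 0.05, with -0.10 to 0.19 over the alternatives. Both shares were near the 14.5% and 6.66% of all genes tested. Of 13 ion transport and endothelial genes 3 were higher and separate and 0 lower and separate. Among the 3 was Slc12a2, a sodium-potassium-chloride cotransporter, at 654 to 1404 on the cornea arrays and 134 to 258 on the others (log2 difference 2.10, limma adjusted p = 9.32e-05). With the array median required on at least 4 arrays, 3 of 9 ion transport and endothelial genes were higher and 3 lower by the test. For S100 and annexin genes these counts were 5 and 2 of 14.
By limma, against the mean of lens and tendon, of 18 leukocyte genes 0 were higher (1 without adult cornea replicate 2) and 7 lower by the test, 1 of them separate, C1qc, a complement chain of macrophages, at 44.5 to 62.4 on the cornea arrays and 109 to 396 on the others. Over all 6109 genes tested, 1690 were higher and 1363 lower by the test. Of 7 vascular endothelial genes 0 were higher and 3 lower, with 1 lower without P10 cornea replicate 1 and 0 of 2 tested without either tendon array. Against lens alone 7 leukocyte, 2 vascular and 2 adipocyte genes were higher, and of 3 red blood cell genes 1 was higher and 1 lower against the mean of lens and tendon. At an unadjusted p under 0.05, 0 leukocyte and 0 vascular genes were higher than that mean, and 7 leukocyte and 5 vascular genes were lower. Of the red blood cell genes, 1 was higher and 2 lower at that p. Of 8 adipocyte genes 0 were higher at either p and 6 were lower (3 without tendon replicate 1), with Fabp4, the fatty acid carrier, at 10.4 to 38.4 in cornea, 70.0 and 74.2 in lens and 1738 and 2162 in tendon. Vascular and adipocyte genes not tested when a tendon array was left out had reached the array median on that array and 1 other only. With the array median required on at least 4 arrays, 0 of 2 vascular genes tested were lower. For adipocyte genes it was 2 of 4. Of 8 nerve and Schwann cell genes 2 were lower and separate, Pmp22 (-2.55) and Uchl1 (-1.35). Of 22 matricellular and remodelling genes 2 were higher and 2 lower without overlap, the latter becoming 4 without lens replicate 2, and of 7 tendon lineage genes 5 were lower by the test, 1 of them separate. Of 8 photoreceptor and retina genes 3 were higher by the test, or 1 without lens replicate 2, tendon replicate 1 or P10 cornea replicate 2, and 0 were separate.

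Adult and P10 cornea were then compared in these genes. The age contrast was not used to choose them, but the rule that both ages lie on 1 side favours genes that differ little with age, so the counts are a description. In the whole table limma called 57 probe sets (0.699%) higher and 316 (3.88%) lower in the adult. Among the 1147 probe sets higher than lens and tendon, 20 were higher and 16 lower in the adult, and 96.4% lay within 2-fold between the ages, against 94.9% of all tested. Their median absolute difference between the ages was 0.231 on the log2 scale, against 0.220 over all tested. Among the 584 below, 0 were higher and 27 lower in the adult by limma (2 and 87 at an unadjusted p under 0.05), and 95.2% lay within 2-fold.
Krt19 had the largest such difference among the named genes above both tissues. It read 319.5, 829 and 443 in adult cornea and 1848 and 2329 in P10 cornea, against 48.7 and 24.1 in lens and 28.8 and 39.2 in tendon, so all 5 cornea arrays exceeded the others and the P10 arrays exceeded the adult ones (adult minus P10 -2.04 ± 0.36 SE, limma adjusted p = 0.0117). Psmb8 went the other way, with adult arrays above P10 arrays (adult minus P10 1.58 ± 0.25 SE, limma adjusted p = 0.00598), and so did Cldn7 (1.23 ± 0.24 SE, limma adjusted p = 0.02). On the lower side Nnat read 5.5, 6.21 and 2.88 in adult cornea and 51.5 and 68.4 in P10 cornea, against 471 and 241 in lens and 680.2 and 567 in tendon, lowest in the adult (adult minus P10 -1.86 ± 0.27 SE, limma adjusted p = 0.00402). The 20 and 16 age calls among higher probe sets became 5 in all without P10 cornea replicate 2, 7 without P10 cornea replicate 1, 20 with a pseudocount of 1, and 24 without tendon replicate 1, tendon replicate 2 or adult cornea replicate 1.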

How the data were processed

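Mouse tissue RNA was hybridised to Affymetrix arrays. The intensity deposited for a probe set is an expression index on a linear scale. In the design text of the series the authors computed expression with Microarray Suite 5.0 and then ran dChip, with an invariant set and a model-based index; the submitters' processing notes name MAS5. Which program made the values, and a genome build, are not given in the sources used here. Detection calls were not used.

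Of 12488 probe sets, 66 controls were left out. Values below 0 were set to 0, 16 was added and log2 taken, and probe sets reaching the array median on at least 2 arrays were tested (8154). A probe set could thus enter through the 2 arrays of 1 tissue alone. The tool limma 3.58.1 (R 4.3.3) fitted the 4 group means over all 9 arrays, with a variance trend (5 residual and 4.933 prior degrees of freedom). The contrast was the mean of adult and P10 cornea minus the mean of lens and tendon, two-sided, with Benjamini-Hochberg adjustment at 0.05. Probe sets with 1 symbol number 10833; lists use 1 probe set per gene, the one with the highest mean, for 625 genes on the array of 773 in 34 lists.

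Members and lists were chosen with earlier results of these data known. Named genes are the 15 widest gaps each way among called, separate probe sets with a 2-fold difference and an index of 100, up to 4 called and separate members of each list and 10 fixed genes; other list members named beside a count were chosen after their values were seen. On simulated data with 200 of 8154 probe sets changed, the test recovered 76% at 2-fold and 99% at 4-fold. Of the calls in that simulation, 4.37% were false. In the real data limma called far more probe sets, 2197 higher and 1868 lower. The simulated rates therefore describe the simulation only and were not shown to hold for these data or for low probe sets. Alternatives covered pseudocounts, filters, normalization, weights, the methods' t-test, a block for the replicate number, and fits without each array in turn. The number of arrays limits the precision.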

Additional observations from a re-analysis of the deposited data

Results flagged for a closer look

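The groups have 2 or 3 arrays, too few for a search for single outlying arrays. A closer look was called for where a named gene that differed from lens and tendon, or was always to be named, also differed between adult and P10 cornea. In that contrast limma called 57 probe sets higher and 316 lower in the adult of 8154 tested. Of the named probe sets 13 differed. Leaving out either P10 cornea array leaves that age with 1 array, and the age calls among the probe sets higher than lens and tendon then fell from 36 to 7 or 5. All contrasts with lens and tendon share those 4 arrays, and each value below is adult minus P10 on the log2(index + 16) scale with its limma adjusted p after Benjamini-Hochberg.

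Genes above lens and tendon that were higher in the adult were Psmb8 at 1.58 (adjusted p = 0.00598), Cldn7 at 1.23 (0.0200) and Pglyrp1 at 1.12 (0.0445). Psmb8 had a mean index of 311 in the adult and 90.6 at P10, and Cldn7 had 824 and 335. Genes above lens and tendon that were lower in the adult were Krt19 at -2.04 (adjusted p = 0.0117), Col7a1 at -1.19 (0.00741) and Alcam, an adhesion molecule, at -0.99 (0.0204). Krt19 had a mean of 530.5 in the adult and 2088 at P10, and Col7a1 had 288 and 672. Lum, which overlapped tendon, was lower in the adult by -1.12 (adjusted p = 0.0465), with means of 845 and 1805.

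Genes below lens and tendon that differed with age were, among those named, lower in the adult. Nnat differed by -1.86 (adjusted p = 0.00402), Col4a2 by -1.50 (0.0206), Ogn by -1.45 (0.0145) and Igfbp7 by -1.23 (0.0226). Lama2 differed by -1.02 (adjusted p = 0.0365) and Chpt1 by -0.88 (0.0299). Chpt1 was low at both ages, with means of 3.12 in the adult and 19.3 at P10.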

How the results depend on the processing

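The higher and lower sets by limma kept their size within 1.5 times under 2 other pseudocounts, 3 filters, 3 normalizations and equal weights, with these exceptions. Requiring the array median on 4 arrays gave 1190 lower probe sets in place of 1868. The methods' t-test with its fold and difference limits gave 596 higher and 247 lower, 550 and 214 of them separate, and after Benjamini-Hochberg 449 and 110, with 448 and 109 separate; its limits on fold and difference remove small differences by construction. A pseudocount of 1 left 20 age calls among the higher and separate probe sets in place of 36. Leaving out 1 array gave 1613 to 2358 higher, 1255 to 2085 lower, 1060 to 1415 higher and separate, 548 to 698 lower and separate, and 5 to 47 age calls among the higher and separate ones. The share of calls that were higher was 54.0%, 45.7% with median centring, which moved the median of all log2 differences from 0.059 to -0.041, 62.5% with the median required on 4 arrays and 63.4% without lens replicate 1. With the replicate number as a block, limma gave 2307 higher, 1990 lower, 1138 and 585 separate, and 45 age calls. Correlations of same-numbered deviations ran from -0.363 to 0.201. In a group of 2 arrays the deviations mirror each other, so this check cannot decide whether the numbers pair the samples. Of 125 named probe sets 124 were called; Rps18, Eng, Gsr, Rpl6, Psmb3 and Rpl8 lost the call in some alternative, 0 reversed, and Krt5 gained one without adult cornea replicate 3 (limma adjusted p = 0.0344). Of the 1147 and 584 probe sets, 994 and 543 kept call and separation with median centring and 1054 and 527 with quantile normalization. The number of arrays, index values below 0 and the absence of a batch shared by the tissues limit precision.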

Other observations

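Repeated probe sets of a gene did not always agree. Of 976 genes with several tested probe sets, 214 had at least 1 that was higher and separate in cornea; all probe sets met that in 49, all shared the direction in 138, and in 37 another was called lower. Of 146 such genes with at least 1 lower and separate, the counts were 16, 87 and 27. Among the named genes, 24 had another tested probe set, and in 1, Capg, it was called the other way, with a log2 difference of -0.70 for 162461_at.

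Of 4268 probe sets too low to be tested, 253 lay above all lens and tendon arrays on every cornea array and 130 below. Among the tested, 32 above and 31 below were separate but not called by limma after Benjamini-Hochberg. Levels of lowly expressed genes rest on few arrays above the array median, and no statement is made about them here.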
